A study of Rattus norvegicus with 10 samples.

Results

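The RNAs described here are small products of RNA polymerase III in rat liver, those of 7SK, of the signal recognition particle, of RNase P, the Y RNAs and 5S rRNA. They were the table rows whose gene name equals 1 of 6 names: RF00100 (7SK), RF00017 and Rn7sl1 (signal recognition particle RNA), Rpph1 (RNase P RNA), RF00019 (Y RNA) and RF00001 (5S rRNA). Names that begin with RF are Rfam families, so that 1 name can gather many genomic copies of an RNA. It need not gather all of them: Rn7sl1 and Rpph1 are named apart. The 6 names held 299 of 51430 isoform rows, and all 6 passed the filter of a mean of at least 1 FPKM (fragments scaled to transcript length and library size), with 11595 gene names tested in all.

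Liver RNA came from 5 libraries of wild type Wistar rats after sleeve gastrectomy (SG), an operation that leaves a narrow gastric tube, and from 5 after a sham operation (SHAM). All rats had been fed a diet with 60% of its calories as fat for 4 weeks, fasted for 16 h and given 35 mg/kg streptozotocin, which kills pancreatic beta cells. Rats with a fasting glucose above 16.7 mmol/L 3 days later were taken as diabetic, so that both groups carry the model and no liver without diabetes is compared. The SG livers are labelled as taken at 3 months; no time is given for SHAM, so that time and operation cannot be told apart. The labels used here give neither the age of the rats nor whether each library is a separate rat, so that p-values measure only the spread between these libraries, which may be technical.

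RNA polymerase III makes short untranslated RNAs that serve the machinery of gene expression. 7SK RNA holds the transcription elongation factor P-TEFb in an inactive particle. Signal recognition particle RNA is the scaffold of the particle that brings ribosomes making secreted proteins to the endoplasmic reticulum, a heavy traffic in liver, which makes most plasma proteins. RNase P trims the leader from precursor transfer RNAs, Y RNAs bind the Ro60 protein, and 5S rRNA is part of the large ribosomal subunit.

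Total estimated counts outside the assembled genes that hold the 5.8S rRNA name RF00002 ranged from 62293924 to 88194371 per library. Those excluded genes took 3.91% to 8.79% of all counts in SG and 4.74% to 11.9% in SHAM. The tissue label matched its hepatocyte markers, with a summed level of at least 25812 FPKM over 7 genes in every library; macrophage markers summed to 140 to 361 FPKM. In bulk liver, fewer cells of a type and less RNA per cell cannot be told apart.

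No promoter window of the 6 names was found in the RefSeq table used, but the window before Parp2, a DNA repair gene, reaches into Rpph1, since both genes are read outward from a shared stretch. It is shown because the RefSeq Rpph1 gene starts within it. Its first 80 bases lie inside that gene, which is read on the opposite strand. The other 170 separate it from the RefSeq Parp2 start. RefSeq gives Rpph1 257 nt, whereas the Rnor_6.0 row counted here has 298 nt and overlaps the Parp2 reference transcript by 19 bases. The 2 annotations thus differ in the extent of these genes. The bases are those of the RefSeq window on GRCr8, chr15:26507409-26507658, plus strand, 5′ to 3′, and the capitals mark an octamer motif.
Rpph1 to Parp2: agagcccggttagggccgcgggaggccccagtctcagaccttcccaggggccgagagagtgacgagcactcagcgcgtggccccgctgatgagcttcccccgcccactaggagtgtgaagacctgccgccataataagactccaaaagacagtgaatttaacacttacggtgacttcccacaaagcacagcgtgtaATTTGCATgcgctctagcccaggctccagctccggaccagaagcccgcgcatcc
The motif ATTTGCAT, the binding sequence of Oct factors, was searched on both strands, stood 54 bases before the Parp2 start and occurred in 1.56% of 33469 windows of 250 bases. The motif TATAAA, the TATA box, was not among these 250 bases on either strand and occurred in 12.9% of the windows.

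Levels per length followed 1 order. Rn7sl1 averaged 41520.2 ± 7343 FPKM over the 10 libraries (SD), RF00017 39338 ± 7965, RF00100 12462 ± 2324 and Rpph1 3313 ± 730.5, while RF00019 averaged 15.2 ± 8.20 FPKM and RF00001 2.33 ± 0.495. Rn7sl1 was above RF00017 in 8 of 10 libraries and their ranges overlapped, so that these neighbours do not differ beyond their spread. Each of the other neighbours in this order kept its place in 10 of 10 libraries, with no overlap of ranges. Among all gene names, with the RF00002 genes left out, the signal recognition particle RNA names ranked from 1 to 3 by FPKM in every library. RF00100 ranked from 4 to 6 and Rpph1 from 11 to 23. The Y RNA name ranked between 1247 and 5271 and RF00001 between 8057 and 10308. Together the 6 names took 2.76% to 4.55% of the counts outside the RF00002 genes in SG and 3.36% to 4.19% in SHAM.

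Reference rows differed in length among the names. Those of RF00100 are 57 to 360 nt long with a median of 292 nt, and the leading 7SK row has 331 nt. Those of RF00017 are 272 to 305 nt long, Rn7sl1 has 300 nt and Rpph1 298 nt. Those of the Y RNA name are 77 to 112 nt and those of 5S rRNA 76 to 138 nt, with library inserts of 300 bp on average and ribosomal RNA depleted beforehand, per the labels. The part of insert length and of depletion in these levels was not tested.

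7SK RNA, the RNA that restrains P-TEFb, was higher in SG by its mean counts. RF00100 stood at 4888, 5349, 6265, 5969 and 6149 CPM (counts scaled to a common library total, outside the RF00002 genes) in SG 1 to SG 5, and at 4350.1, 4402, 4229.7, 4684 and 4853 in SHAM 1 to SHAM 5. Every SG library was above every SHAM library, with SG 1 the lowest of its group and SHAM 5 the highest of the other. Of all names tested, 0.612% had groups that did not overlap in CPM, in either direction, and 0.448% had every SG library above every SHAM library; 2 of the 6 members did not overlap, RF00100 upward and RF00001 downward. The group means (± SD, n = 5) were 5724 ± 586 for SG and 4504 ± 257 for SHAM, and the log2 fold change was 0.35 ± 0.13 (SE), with a 95% interval from 0.06 to 0.64. The difference did not pass the test over all names (edgeR, unadjusted p = 0.0213, adjusted p = 0.995).

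The separation of the 7SK values was narrow. After scaling by the trimmed mean of M values, SG 1 stood at 4886 and SHAM 5 at 4902, and the groups overlapped. In FPKM they stayed apart, at 12318 to 16021 in SG and 9027 to 11100.2 in SHAM, on a scale where the median log2 fold change of all names was 0.08 (limma, pseudocount 0.5). With the RF00002 genes kept in the totals they were also apart, at 4640.2 to 5908 CPM in SG and 3727 to 4379 in SHAM. The share of all names separated was not computed in FPKM or with those genes kept, so that no weight can be given to these separations. The share of those genes averaged 5.30% in SG and 8.14% in SHAM. With them kept, the log2 fold change of RF00100 was 0.35 as well. That fit scales by the trimmed mean again, whichever total is used, so the value cannot show the part of those genes. Summed markers of B and plasma cells (4 of 4 listed genes in the table) were 20.2 to 66.4 FPKM in SG and 6.03 to 25.2 in SHAM, and those of red blood cells (3 of 4) were 140 to 523 in SG and 256 to 1280 in SHAM. The part of these cells in the difference was not tested.

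RNase P RNA showed a similar difference with more overlap. Rpph1 stood at 1140.2, 1551, 1447, 1588 and 1239 CPM in SG 1 to SG 5 and at 926, 1015, 1268, 1279 and 899 in SHAM 1 to SHAM 5. SG 2, SG 3 and SG 4 were above every SHAM library, while SG 1 and SG 5 lay below SHAM 3 and SHAM 4. The means were 1393 ± 196 and 1077 ± 184 (SD, n = 5), with a log2 fold change of 0.39 ± 0.16 (SE; 95% interval 0.03 to 0.74; edgeR, unadjusted p = 0.0346, adjusted p = 0.995). The RNA of RNase MRP, a related enzyme that cuts precursor ribosomal RNA (RF00030), had a log2 fold change of 0.11 ± 0.22, with 1364 to 2086 CPM in SG and 1048 to 2199.9 in SHAM. The difference between the 2 fold changes was not tested. The ratio of RNase P RNA to RNase MRP RNA was 0.703 to 0.909 in SG and 0.531 to 0.858 in SHAM.

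Rpph1 has 1 row in the table, at chr15:27738972-27739269 on the minus strand of Rnor_6.0. The reference transcript of Parp2 on the other strand overlaps it by 19 bases, and the sources used here do not say how the counting used strand. Parp2 had 278 to 622 counts per library against 58947 to 140024 for Rpph1, and the RefSeq table gives this gene the biotype of RNase MRP RNA, whereas the deposited table describes it as RNase P RNA, the name used here. Parp2 itself averaged 2.26 FPKM (SD 0.609, n = 5) after SG and 1.59 (SD 0.259) after the sham operation (log2 fold change 0.33 ± 0.18 SE; edgeR, adjusted p = 0.995), with SG 3 and SG 5 highest, whereas SG 2 and SG 4 were highest for Rpph1.

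Signal recognition particle RNA had nearly equal means in both groups and a wide spread in SG. Rn7sl1 stood at 13294, 16336, 16506, 19898 and 10275 CPM in SG 1 to SG 5 and at 16134, 16182, 18219, 15749 and 13823 in SHAM 1 to SHAM 5. RF00017 stood at 13199, 19778, 15499.6, 18072 and 9914 in SG and at 12934, 14661, 18127, 18014 and 13988 in SHAM. SG 5 was the lowest of all 10 libraries for both names, and the SHAM range lay inside the SG range for both.

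The log2 fold change was -0.05 ± 0.21 (SE; 95% interval -0.52 to 0.42) for Rn7sl1 and 0.00 ± 0.23 (-0.51 to 0.51) for RF00017, with edgeR adjusted p of 0.996 and 0.999. These intervals leave room for changes of up to 1.42-fold upward, and down to 0.698 of the SHAM level. The sign of the RF00017 value turned under 11 of 19 alternatives and carries no direction. Summed over both names, this RNA was 5.42, 6.75, 5.11, 6.36 and 3.28 times as high as 7SK in counts in SG 1 to SG 5, and 6.68, 7.01, 8.59, 7.21 and 5.73 times in SHAM 1 to SHAM 5. The ratio is free of the library total, and the groups overlapped in it.

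**Figure D1:**
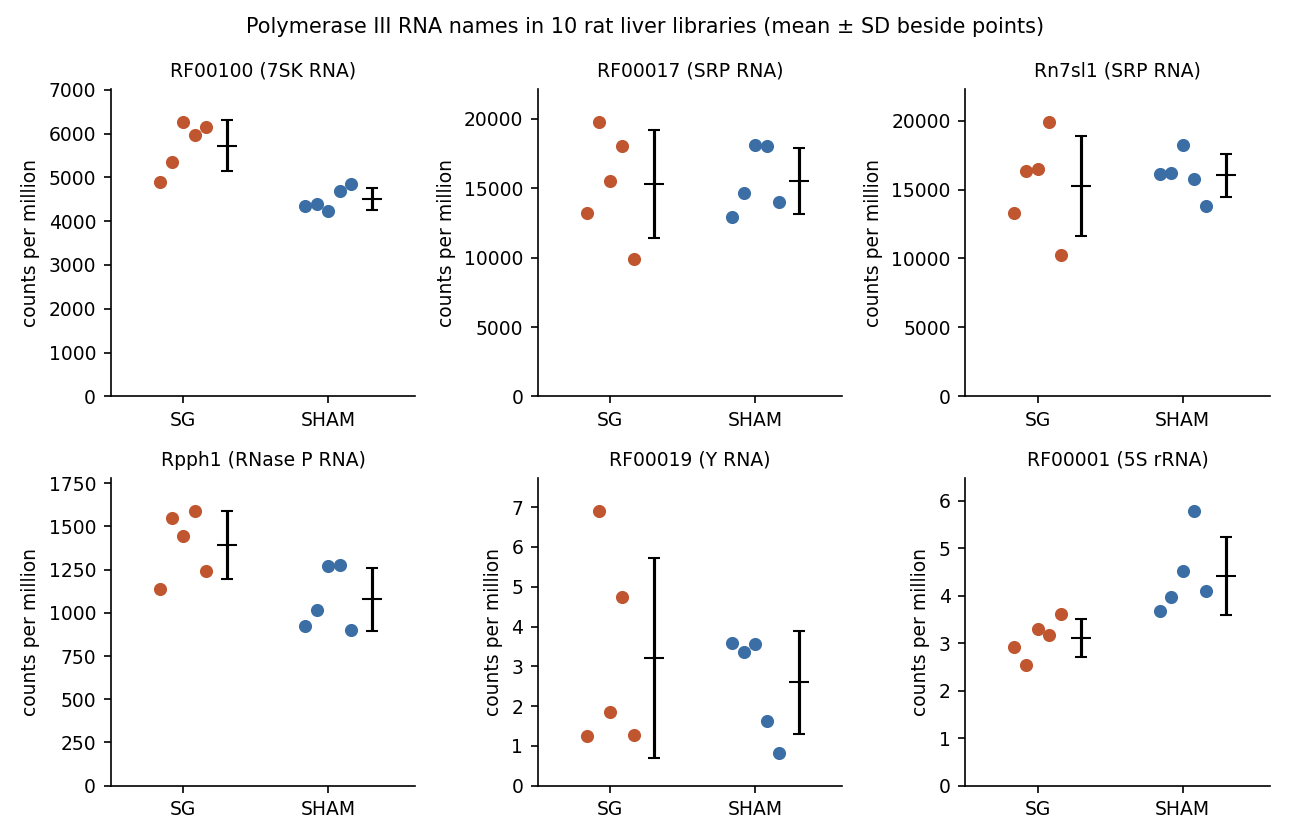
CPM of each name in each library (points), with the group mean and SD beside them, on linear axes from 0. The 5 SG points of RF00100 lie at 4888 or above and the SHAM points at 4853 or below, whereas the SHAM points of both signal recognition particle names lie within the SG range.

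The Y RNA and 5S rRNA names rested on few fragments. RF00019 stood at 1.25, 6.90, 1.85, 4.75 and 1.28 CPM in SG 1 to SG 5 and at 3.60, 3.37, 3.57, 1.62 and 0.818 in SHAM 1 to SHAM 5, which is 62 to 588 counts per library. The values of SG 2 and SG 4 were above all SHAM libraries and the other 3 SG values lay within the SHAM range. The log2 fold change of 0.35 ± 0.58 (SE; 95% interval -0.94 to 1.65; edgeR adjusted p = 0.995) was -0.14 without SG 2.

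Y1 RNA, at chr4:77463050-77463161 (minus strand), had 3.63 to 11.7 FPKM in SG and 1.53 to 10.5 in SHAM. Y3 RNA, at chr4:77459794-77459895 (plus strand), had 3.04 to 14.9 FPKM in SG and 3.68 to 7.86 in SHAM. SG 2 was the highest library for both. Up to 52.4% of the counts under the Y RNA name in a library came from an assembled transcript of 507 nt on chromosome 1, longer than any Y RNA row of the reference.

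RF00001 was the other name whose groups did not overlap, with every SG library below every SHAM library, as held for 0.164% of all names. It stood at 2.91, 2.53, 3.31, 3.17 and 3.61 CPM in SG 1 to SG 5 and at 3.68, 3.98, 4.51, 5.78 and 4.10 in SHAM 1 to SHAM 5. The log2 fold change was -0.50 ± 0.16 (SE; 95% interval -0.85 to -0.15; edgeR, unadjusted p = 0.00993, adjusted p = 0.995). Most of this value does not come from 5S reference rows: 84.2% to 93.3% of the counts were those of 1 assembled transcript of 2683 nt, antisense to a 5S copy within chr4:7954614-8032591. That transcript had 0.675 to 0.998 FPKM in SG and 0.960 to 1.51 in SHAM. Summed in FPKM the name overlapped between groups, at 1.57 to 2.62 in SG and 2.33 to 3.07 in SHAM, with SG 3 and SG 5 above SHAM 3. Over the 75 reference rows alone, the 5S name had 0.272 to 0.523 CPM in SG and 0.390 to 0.581 in SHAM, the groups overlapped, and the log2 fold change was -0.35 (edgeR, unadjusted p = 0.127).

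No member passed at an adjusted p of 0.05, and neither did any of the 11595 names in edgeR (0%). At an unadjusted p under 0.05 there were 519 names (4.48%), 2.72% higher and 1.76% lower in SG. Among the 6 members, RF00100 and Rpph1 were higher and RF00001 lower at that unadjusted level. DESeq2 called 14 names, none of them a member, and gave its lowest member value for RF00100 (adjusted p = 0.164). Over all names the median log2 fold change was -0.01.

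**Figure D2:**
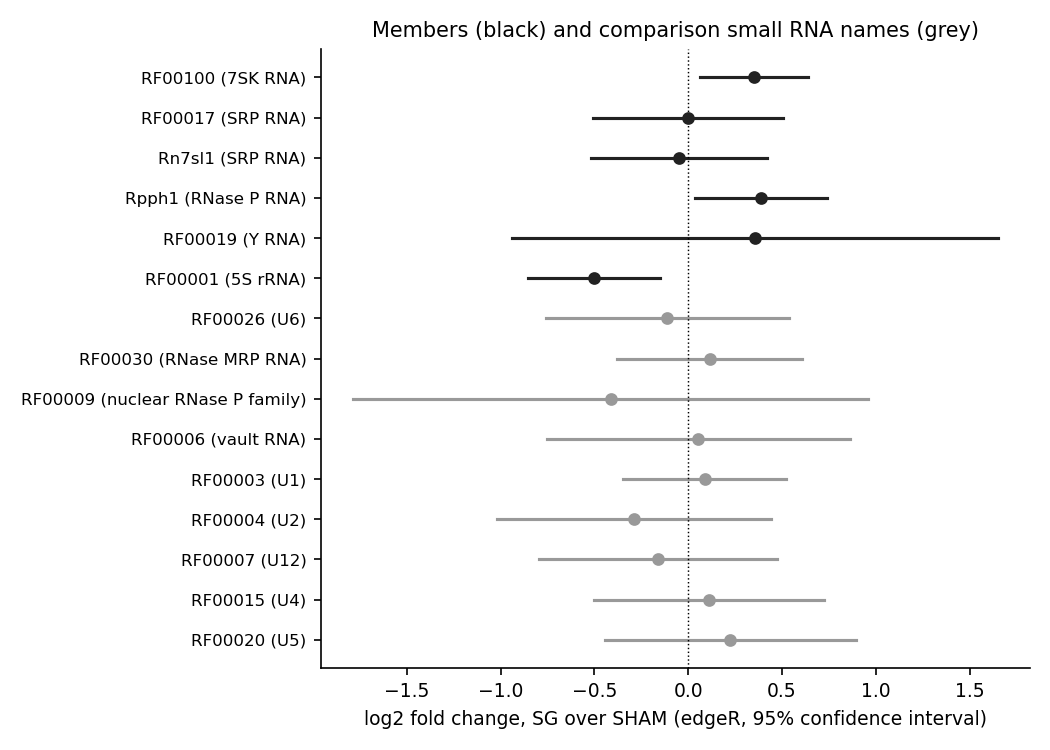
Log2 fold change of SG over SHAM with its 95% confidence interval (edgeR) for the 6 names (black) and for 9 other small RNA names (grey). The intervals of RF00100, Rpph1 and RF00001 do not reach 0 before adjustment, and those of the 9 comparison names all include 0.

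Other small RNA names were set beside them. The polymerase III products U6 RNA (RF00026, of the spliceosome), RNase MRP RNA, the nuclear RNase P family RF00009 and vault RNA (RF00006) had log2 fold changes of -0.11 ± 0.29, 0.11 ± 0.22, -0.41 ± 0.62 and 0.05 ± 0.36 (SE). The polymerase II products U1 (RF00003), U2 (RF00004), U4 (RF00015), U5 (RF00020) and U12 (RF00007), which are spliceosomal RNAs, had 0.09 ± 0.20, -0.29 ± 0.33, 0.11 ± 0.28, 0.23 ± 0.30 and -0.16 ± 0.29. None of these names passed (edgeR, adjusted p from 0.995 to 0.999). For U6 only 2.27% to 5.17% of counts came from reference rows for RF00009 0.964% to 14.0% and for U12 3.03% to 19.6%, so that the values of these names are mostly those of assembled rows outside the reference copies.

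**Figure D3:**
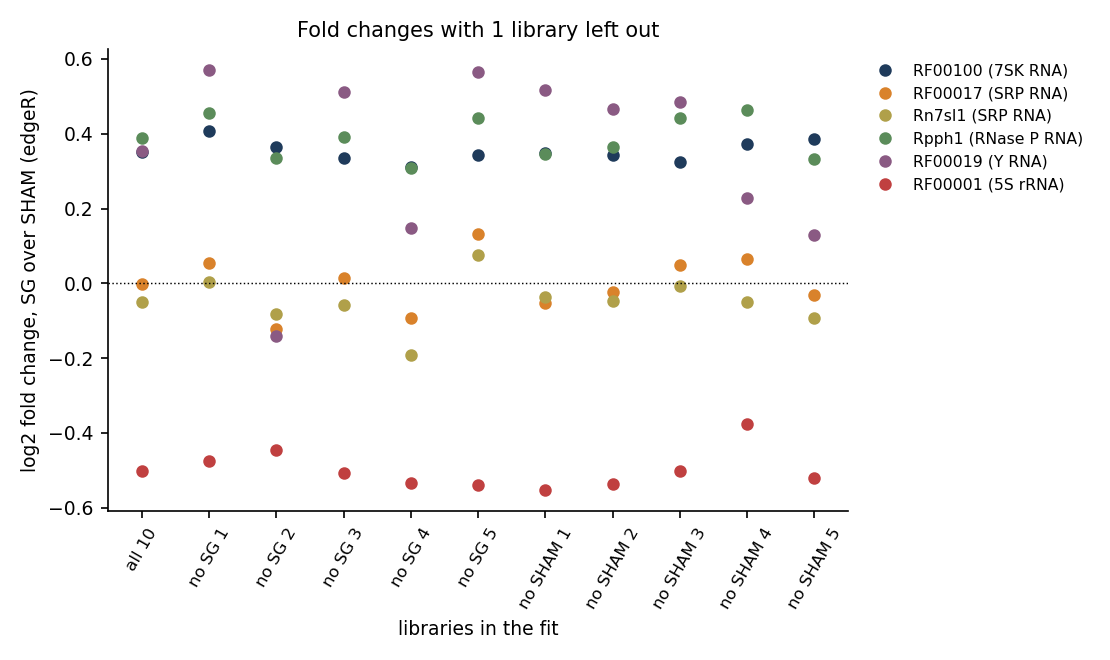
Log2 fold change of SG over SHAM (edgeR) for each name with all 10 libraries and with each library left out in turn. RF00100 stayed between 0.31 and 0.41 and Rpph1 between 0.31 and 0.46, whereas the values of RF00017, Rn7sl1 and RF00019 crossed 0.

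The 7SK name had many rows, but few of them held most of its counts. The name holds 181 rows on 21 chromosomes, of which 4 were at 0 in every library, 82 were above 0 in all 10 and only 9 had a mean of at least 10 FPKM. The leading row, at chr8:85480292-85480622 on the minus strand and described in the table as nuclear 7SK RNA, held 54.2% to 84.4% of the counts of the name.

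The leading 7SK row alone did not separate the groups. It stood at 6897, 9558, 10858, 12477 and 8898 FPKM in SG 1 to SG 5 and at 9259, 7957, 4822, 8275 and 8828 in SHAM 1 to SHAM 5, with a log2 fold change of 0.26 ± 0.21 (SE; edgeR over 39349 rows, unadjusted p = 0.261). A copy on the X chromosome, at chrX:23467547-23467864 (minus strand), stood at 3723, 1000.1, 1335, 210.0 and 5469.9 FPKM in SG and at 78.2, 883, 3129.8, 193 and 215 in SHAM. It held 29.5% of the 7SK counts in SG 1, 33.3% in SG 5 and 33.8% in SHAM 3, the libraries where the leading row held least (56.8%, 56.3% and 54.2%), and 0.685% to 8.86% in the others.

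The X copy ranged 70.0-fold over the 10 libraries in FPKM and the sum over all copies 1.77-fold. Copies at chr17:90799609-90799914 (25.3 to 1401 FPKM) and on chromosome 18 (89.8 to 953 FPKM) ranged 55.5-fold and 10.6-fold. That on chromosome 2 (514 to 1278 FPKM) kept 3.96% to 8.12% of the name. How fragments that match several copies were assigned is not stated, so the level of a single copy is uncertain.

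**Figure D4:**
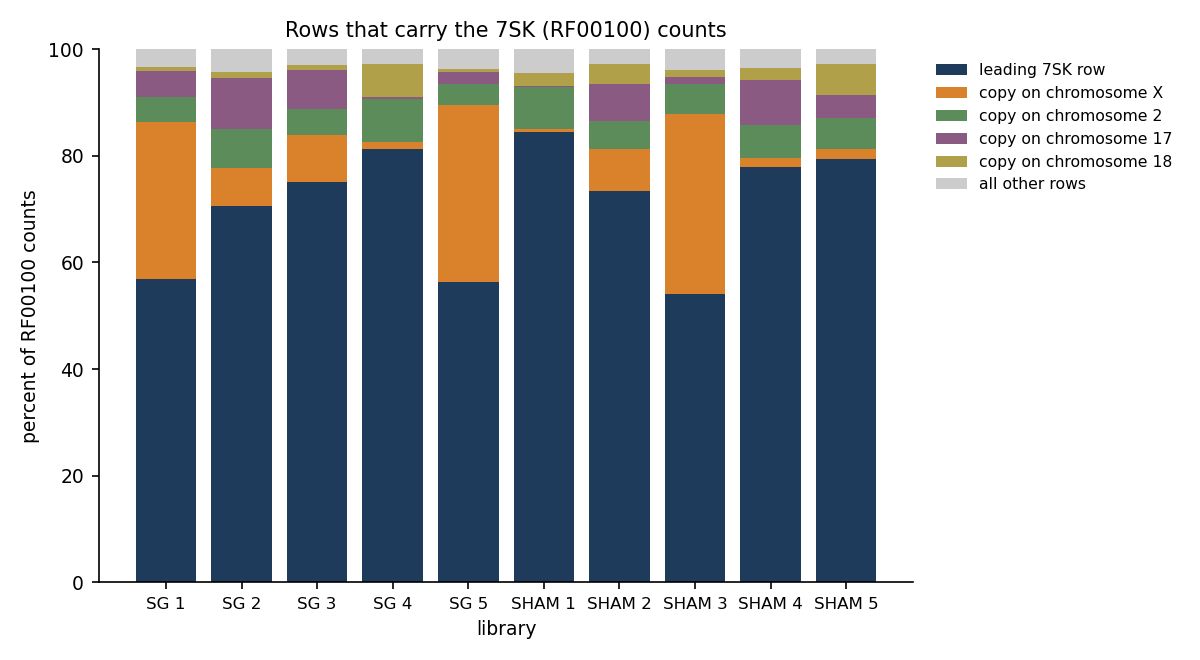
Percent of the RF00100 counts in each library held by the 5 rows with the most counts and by all other rows, as stacked bars that sum to 100. The leading row gives way to the X chromosome copy in SG 1, SG 5 and SHAM 3, where the copy holds 29.5% to 33.8%.

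At the level of rows, 129 of the 299 member rows passed the filter and 0 passed the test (0% of all 39349 rows did). At an unadjusted p under 0.05 there were 3 of the 129 (2.33%), against 4.05% of all rows tested. They were Rpph1, the transcript antisense to a 5S copy, and another 7SK copy on chromosome 17, at chr17:79036022-79036339 (plus strand). That copy stood at 61.7, 251, 76.7, 63.9 and 279 FPKM in SG 1 to SG 5 and at 62.6, 36.8, 57.4, 46.6 and 52.4 in SHAM 1 to SHAM 5, with a log2 fold change of 1.41 ± 0.47 (SE; edgeR adjusted p = 0.9997) that rests on SG 2 and SG 5. Of the 104 tested 7SK rows, 50 had a positive and 54 a negative fold change, with a median of -0.03 on the log2 scale.

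Signal recognition particle RNA came from a pair of rows of 300 nt on chromosome 6. The Rn7sl1 row lies at chr6:91456908-91457207 (plus strand), and the leading RF00017 row, described in the table as a second such RNA gene, at chr6:91680229-91680528 (minus strand). The latter had 31158, 50219.6, 30139.7, 43543 and 24329.9 FPKM in SG 1 to SG 5 and 30854, 35368, 34955, 32822 and 30384 in SHAM 1 to SHAM 5, and held 72.8% to 91.0% of its name. The lowest share was in SHAM 4, where copies on chromosome 7 (5542 FPKM) and the X chromosome (4199 FPKM) were at their highest. A further 2.84% to 6.40% of the RF00017 counts lay in 7 assembled rows that overlap reference copies, up to 42417 nt, the longest of them on chromosome 7 opposite to Sdc2, which encodes a cell surface proteoglycan.

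Further rows that touch both loci carry another name. In the assembled gene that holds Rn7sl1, 4 spliced rows of 210 to 331 nt start within Rn7sl1 and end 223279 to 223502 bases further on, inside the leading RF00017 row. The table gives these rows the name Klhdc1, a gene that lies between the 2 loci. Their CPM values were 64.1, 9052, 2169.8, 7028 and 1565 in SG 1 to SG 5 and 2171, 2640.0, 1491, 3034 and 3357 in SHAM 1 to SHAM 5. The rows that carry the Klhdc1 name elsewhere had 0.299 to 1.59 CPM. SG 2 and SG 4, the libraries with the most of these joining rows, were also the SG libraries with the most counts of RF00017 and Rn7sl1 together. Within SHAM the order differed: SHAM 5, with the most joining rows, had the lowest sum of both names (27811 CPM), and SHAM 3, with the fewest, the highest (36346 CPM). Whether the joining rows hold signal recognition particle RNA was not tested.

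With every row of its assembled gene, Rn7sl1 stood at 13722, 25389, 18676, 26926 and 11841 CPM in SG 1 to SG 5 and at 18304, 18822, 19696, 18784 and 17179 in SHAM 1 to SHAM 5. The SHAM libraries lay within a narrow range and the SG libraries lay on both sides of it, with SG 1 and SG 5 below and SG 2 and SG 4 above. The means were 19311 ± 6752 and 18557 ± 919 (SD, n = 5), and the log2 fold change was 0.08 (edgeR adjusted p = 0.995), against -0.05 by name. This sum was made after the data were seen.

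**Figure D5:**
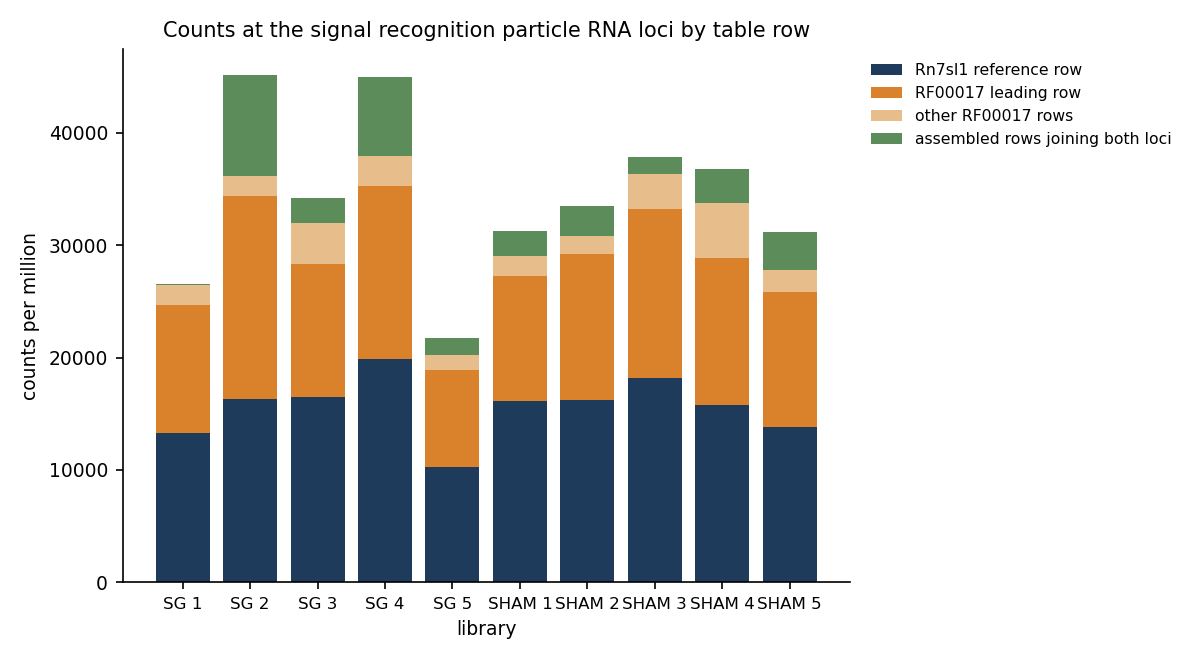
CPM of rows at the signal recognition particle RNA loci in each library, stacked by table row: the Rn7sl1 reference row, the leading RF00017 row, the other RF00017 rows and the assembled rows that join both loci and are named Klhdc1. The joining rows reach 9052 in SG 2 and 7028 in SG 4 but 64.1 in SG 1.

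Whether the names vary together was asked over the 10 libraries, with 15 pairs on log2(CPM + 1). All values of a library share its total count. The closest pair was RF00017 with Rn7sl1 (Pearson r = 0.83, permutation p = 0.00383, adjusted p = 0.0574; Spearman rho = 0.77, permutation p = 0.0123, adjusted p = 0.116), with r = 0.72 without SG 2 and SG 5, 0.91 within SG and 0.51 within SHAM. Rn7sl1 with RF00019 followed (r = 0.68, permutation p = 0.0262, adjusted p = 0.196; rho = 0.76, permutation p = 0.0154, adjusted p = 0.116), with 0.68 without SG 4 and SG 5, 0.70 within SG and 0.85 within SHAM. For RF00100 with Rpph1 r was 0.62 (permutation p = 0.0592, adjusted p = 0.244; rho = 0.50, p = 0.145, adjusted p = 0.271), with 0.66 without SG 3 and SG 5, 0.41 within SG and -0.27 within SHAM. For RF00017 with Rpph1 r was 0.54 (permutation p = 0.105, adjusted p = 0.315) and rho 0.71 (permutation p = 0.0268, adjusted p = 0.134). That r was 0.75 without SG 2 and SG 5, 0.81 within SG and 0.97 within SHAM. For 7SK with Rn7sl1 r was -0.22 (permutation p = 0.553, adjusted p = 0.755) and rho -0.05 (permutation p = 0.892, adjusted p = 0.920). That r was 0.25 without SG 3 and SG 5, 0.06 within SG and -0.91 within SHAM. No pair passed.

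The names whose log2 CPM values were most like each member over the 10 libraries were found among 11589 other names, by Pearson r and as a description. For RF00100 they were AABR07067829 (0.89), Glcci1 (0.89) and Rbak (0.87), and for Rpph1 Bmp6 (0.93), Trmt44 (0.91) and Psph (0.91). For RF00017 they were Wdr45b (0.96), U4 RNA (RF00015, 0.90) and Slc17a9 (0.90), for Rn7sl1 Arhgap10 (0.92), Fam199x (0.91) and RF00045 (0.88), for RF00019 RF00567 (0.93), Retreg3 (0.93) and Rplp1 (0.92), and for RF00001 Keap1 (0.97), Phb2 (0.89) and Sympk (0.89). These are the highest of many values over few libraries, which share their totals.

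Protein partners of these RNAs were counted from fixed lists, and none passed (edgeR, adjusted p of 0.995 for each gene named in this paragraph). Of 29 tested subunits and factors of RNA polymerase III (30 listed), 12 had a positive and 17 a negative fold change, with a median log2 of -0.03. The smallest p-values were those of Snapc1 (0.39 ± 0.16 SE), a subunit of the complex that binds the promoters of 7SK, U6 and RNase P RNA genes, and Gtf3c3 (-0.19 ± 0.10), a subunit of the factor TFIIIC. Snapc1 had 2.07 to 2.23 FPKM in SG and 0.988 to 1.87 in SHAM. On that scale the median log2 fold change of all names was 0.08 (limma, pseudocount 0.5). The share of all names separated in this way in FPKM was not computed, so that no weight can be given to this separation.

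Proteins of the 7SK particle and P-TEFb, 7 tested, had 3 positive and 4 negative values and a median of -0.02, with Ccnt2, a cyclin of P-TEFb, at -0.21 ± 0.10 (SE) and Larp7, which binds the 7SK end, at 0.14 ± 0.19. Of 10 listed signal recognition particle and receptor names, 6 were present and tested, and Srp54, Srp72, Srpr and Srprb were absent. Of those 6, 4 were positive and 2 negative (median 0.09), with Srp68 at -0.25 ± 0.13 and Srp19 at 0.30 ± 0.21. Of 9 tested RNase P and MRP proteins (11 listed), 5 were positive and 4 negative (median 0.05), with Rpp14 at 0.17 ± 0.09 and Pop4 at 0.25 ± 0.17. Of 8 tested partners of Y RNA and 5S rRNA (10 listed), 5 were positive and 3 negative (median 0.25). Among these Rpl5 and Rpl11, the ribosomal proteins that bind 5S rRNA before its entry into the ribosome, stood at 0.54 ± 0.11 and 0.36 ± 0.10.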

How the data were processed

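Total rat liver RNA in 10 libraries was depleted of ribosomal RNA, fragmented and sequenced as paired ends, per the labels' protocols. Per the submitters' processing notes, the tools included StringTie 1.3.4, HISAT2 2.0.4 and cutadapt 1.9, with the build Rnor_6.0. How multi-mapped reads were shared among copies is not stated there. The authors deposited 1 table with FPKM and whole-number estimated counts per isoform; per the file headers the former are scaled to length and library. Because counts are estimates, p-values from count models rest on them. Rows were summed per gene name outside 15 assembled genes holding RF00002; rows without a name (3.08% or more of counts) stayed in the library totals and out of the tests. Names entered at a mean of at least 1 FPKM, and rows when above 0 in at least 5 libraries at a mean of 0.1 FPKM or more.

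The main test was edgeR 4.0.16 (R 4.3.3), quasi-likelihood with TMM scaling, two-sided, with Benjamini-Hochberg adjustment over all features tested and a threshold of 0.05; standard errors came from the F statistic. Limma 3.58.1 on log2(FPKM + 0.5), with 0.1 and 1 as other pseudocounts, and DESeq2 1.42.0 were alternatives. In simulated counts for 11595 names, SG against SHAM, 57% of changes of 2-fold and 93% of those of 4-fold were found by edgeR, with 8 false calls. Changes of less than 2-fold, as estimated for every member, were not simulated. Correlations used 100000 permutations, two-sided. Named rows were the 3 with the highest mean FPKM of each name, partners were the 2 smallest p-values of each list, and likeness the 3 highest r. The 7SK copies on chromosomes 17 and 18, the RF00017 rows opposite to Sdc2 and the joining rows were named after their values were seen. Members and lists were chosen with earlier results of these data known. Sequence and symbols of the promoter window came from RefSeq (GRCr8).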

Additional observations from a re-analysis of the deposited data

Results flagged for a closer look

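In 5 of 42 groups of 5 libraries tested, 1 library stood far from the other 4 of its group, by a gap of more than 0.71 of the whole range. That cut-off flags about 1 group in 20 when values are independent and normally distributed. These FPKM values do not meet that condition, since 1 flagged row was at 0 in the other 4 libraries of its group. The count of 5 in 42 therefore cannot be set against that rate, and the cases below are a description. The 7SK copy on the X chromosome stood at 3129.8 FPKM in SHAM 3, and the rest of that group at 78.2 to 883. The RF00017 copy on chromosome 7 had 5542 FPKM in SHAM 4, against 302 to 742. Of the assembled rows antisense to Rn7sl1, 1 had 32.2 FPKM in SHAM 3 (0 to 6.11 in the others) and another had 6.77 FPKM in SHAM 3 and was listed at 0 in the others. The transcript antisense to a 5S copy had 1.51 FPKM in SHAM 4, against 0.960 to 1.04.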

How the results depend on the processing

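RF00100, Rpph1 and RF00001 kept their direction in 19 of 19 alternatives and passed in none (adjusted p of 0.164 or more). These alternatives use the same libraries, so that the count is not independent support. Without SG 4 the unadjusted p was 0.0558 for RF00100 and 0.0913 for Rpph1 (edgeR), both above 0.05. Over reference rows alone it was 0.127 for RF00001 (edgeR). With 1 library left out the log2 fold change was 0.31 to 0.41 for RF00100 and 0.31 to 0.46 for Rpph1. It was -0.55 to -0.38 for RF00001 and -0.14 to 0.57 for RF00019. For RF00017 it was -0.12 to 0.13 and for Rn7sl1 -0.19 to 0.0767. RF00017, -0.00 in the main fit, was 0.0023 with size factors by DESeq2's method in edgeR and 0.0023 in DESeq2, 0.0506 in limma at each pseudocount of 0.1, 0.5 and 1, and 0.0057 over reference rows alone. Rn7sl1 was 0.0836 with all rows of its assembled gene, an alternative added after the data were seen. DESeq2 called 14 names. Left-out libraries gave 0 to 1 names (1 without SG 5 and 1 without SHAM 1) and 0 to 6 rows (6 when SHAM 1 was left out, 2 for SG 2, 2 for SG 3 and 1 for SHAM 5), and 0 member rows in each. Depth limits the Y RNA and 5S names, which had 62 to 588 and 216 to 415 counts per library.

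Groups share replicate numbers in the labels, which do not say that a number marks a shared rat or batch. The correlation of same-numbered deviations was -0.20 to 0.11, so the numbers were not taken to pair the libraries. With the replicate number as a block edgeR called 0 names and 0 rows, with RF00100 at 0.35, Rpph1 at 0.38, RF00001 at -0.49, RF00019 at 0.18, RF00017 at -0.04 and Rn7sl1 at -0.09. Only SG 5 correlated best with its own number in the other group, and no SHAM library did so.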
